A study of Mus musculus with 2 samples.

Results

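Follicular-type B cells are the naive, recirculating B lymphocytes that fill the follicles of lymphoid tissue, including those of the gut wall. Here they were droplet barcodes carrying transcripts of B-cell genes in the proximal small intestine of 2 mice that had lost Apc in the gut lining. The mice, called APC, carried Villin-CreERT2 and Apc fl/fl, and each was given tamoxifen intraperitoneally as 2 doses of 2 mg, 24 h apart, and sampled on day 4. The villin promoter drives Cre in intestinal epithelium, so the alleles were recombined in that lining and the B cells themselves were not its target. No mouse with intact Apc was analysed here, so both samples form 1 group and no effect of Apc loss on B cells can be drawn from them. Age and sex were not given in the labels. The tissue was dissociated enzymatically, and live cells were sorted by exclusion of DAPI and sequenced as single cells from the 3′ end of each transcript.

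A barcode was kept when it held more than 100 genes and more than 400 unique molecular identifiers (UMIs, one per captured transcript), with under 5% of UMIs from mitochondrial genes and under 10% from haemoglobin genes. A kept barcode was called a B cell when at least 3 of 8 rule genes (Ms4a1, Pax5, Fcer2a, Ighd, Bank1, Ebf1, Cr2 and Fcmr) had a UMI, when Mzb1, Derl3 and Xbp1, which mark antibody-secreting cells, summed to under 10 UMIs, and when Cd3d, Cd3e and Cd3g of the T-cell receptor complex were at 0. The cells were thus chosen by the UMI counts of these genes. The rule found 423 B cells among 14898 kept barcodes, 343 of 7941 in mouse 1 and 80 of 6957 in mouse 2. As the rule reads the same transcripts that are described here, every difference between these cells and others is a description, none was tested and no p-value is given.

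A follicular B cell waits for antigen with IgM and IgD on its surface. Both are joined to the signalling chains Cd79a and Cd79b, whose tyrosine motifs are phosphorylated by Lyn and Syk when antigen binds. CXCR5 and CCR7 bring the cell to the follicle and its border with the T-cell zone, the BAFF receptor Tnfrsf13c keeps it alive, and MHC class II lets it show peptides to helper T cells. On activation it may enter a germinal centre or become a plasma cell, and in the gut most plasma cells make IgA.

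B cells made up 4.32% of kept barcodes in mouse 1 (exact binomial 95% interval 3.88 to 4.79) and 1.15% in mouse 2 (0.913 to 1.43). Among barcodes with a UMI of Ptprc, the leucocyte marker CD45, the share was 5.49% (4.92 to 6.1, 324 of 5905) and 1.09% (0.849 to 1.38, 69 of 6330), a mean of 3.29% ± 3.11 (SD, n = 2 mice). The intervals of the mice did not overlap, and they cover counting error only. The remaining 19 and 11 B cells had no Ptprc UMI. The B cells held a median of 3292 UMIs in mouse 1 and 2290.5 in mouse 2, against 3329 and 2608 in barcodes with a Cd3 UMI. The files held 85670711 and 38716743 UMIs in all. No B cell shared its barcode sequence with a barcode of the other library, although 16 kept barcodes did.

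Few barcodes lay near the limit of the rule. Among kept barcodes that met the other clauses, 1840 in mouse 1 and 746 in mouse 2 had no rule gene, and 110 and 30 had exactly 1. Just outside the limit, 9 barcodes of mouse 1 and 0 of mouse 2 had 2 rule genes, and just inside it 8 and 4 had 3. Cd79a, which the rule did not read, stood at 504.5 CPM (UMIs per 1000000 UMIs outside immunoglobulin genes) in the barcodes of mouse 1 with 2 rule genes and at 2003 in those with 3. All 8 rule genes were seen in 49 and 6 B cells, and the median was 6 in both mice.

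**Figure D1:**
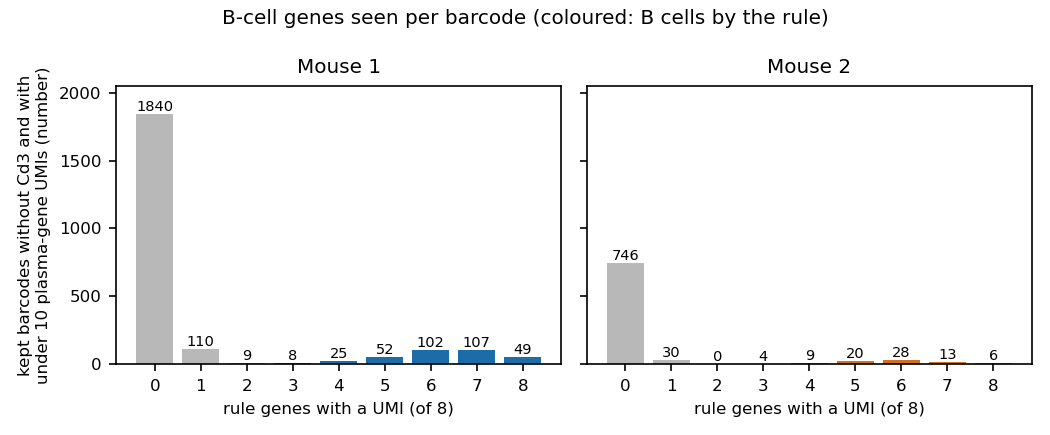
Number of kept barcodes (vertical axis) by how many of the 8 rule genes had a UMI (horizontal axis), for barcodes without Cd3 UMIs and with under 10 UMIs of Mzb1, Derl3 and Xbp1. Coloured bars are the B cells. Near the limit lie 9 and 0 barcodes with 2 genes and 8 and 4 with 3, against 107 and 13 with 7.

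All levels are CPM of the UMIs summed over the cells of a class in each mouse. Immunoglobulin genes were left out of the total because they held 41.3% of the UMIs of other Ptprc-positive barcodes in mouse 1 and 20.3% in mouse 2, against 3.15% and 1.80% in B cells. A gene was called higher or lower when it differed by at least 2-fold, in the same direction in both mice, from all other kept Ptprc-positive barcodes (5581 and 6261). B cells were also compared with 3 classes of kept barcodes: plasma-cell barcodes (at least 10 UMIs of Mzb1, Derl3 and Xbp1, 2307 and 704), Cd3 barcodes (3190 and 5292) and myeloid barcodes (at least 3 myeloid genes, 447 and 322). Of 12218 genes with at least 20 UMIs in B cells and the comparison together in each mouse, 463 (3.79%) were higher in B cells and 830 (6.79%) lower. The median log2 difference over all genes was -0.14 in mouse 1 and 0.09 in mouse 2. With CPM taken over all UMIs, that median moved from a mean of -0.02 to 0.49 and the split became 949 higher and 413 lower.

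The 8 rule genes were, by construction, all far higher in B cells. Ms4a1, which encodes CD20, stood at 895 CPM in mouse 1 and 1012 in mouse 2, against 17.4 and 2.93 in Cd3 barcodes. Ebf1, a factor that sets B-lineage identity, stood at 1654 and 2163, and Pax5, which keeps that identity, at 400.3 and 418. Fcer2a, the CD23 receptor for IgE that is typical of follicular cells, stood at 281 and 351, and Cr2, the complement receptor CD21, at 352 and 248. Ighd was at 976 and 1569, Fcmr, the receptor for secreted IgM, at 490.0 and 656, and the scaffold Bank1 at 544 and 619. In the GRCm38 annotation Ms4a1 lies at chr19:11249675-11266241, Ebf1 at chr11:44617317-45008091, Fcer2a at chr8:3681737-3694175 and Cr2 at chr1:195136811-195176716.

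Fcer2a and Cr2 were seen together in 118 and 16 B cells, Fcer2a alone in 79 and 24, Cr2 alone in 84 and 12, and neither in 62 and 28. Fcer2a had a UMI in 57.4% (52.0 to 62.7) of B cells in mouse 1 and 50% (38.6 to 61.4) in mouse 2, against 1.16% and 0.132% of Cd3 barcodes. Cr2 had one in 58.9% (53.5 to 64.1) and 35.0% (24.7 to 46.5), against 1.35% and 0.510%. When each cell was thinned to 1000 UMIs, which left out no B cell, the expected shares were 25.8% and 27.8% for Fcer2a and 27.5% and 19.4% for Cr2. At 1 depth the mice thus differed little in Fcer2a, while Cr2 stood lower in mouse 2.

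Other genes of B-cell identity that the rule did not read were high in the same cells. Of 22 such genes, 19 were higher than in other Ptprc-positive barcodes and none lower, with a median log2 difference of 2.38 in mouse 1 and 3.36 in mouse 2. Against Cd3 barcodes, 21 of 22 were higher and none lower (background 4.16% and 8.83% of 11098 genes), with medians of 4.64 and 5.91. Cd79a was at 2505 and 2757 CPM in B cells, at 1450 and 1057 in plasma-cell barcodes and at 63.5 and 10.6 in Cd3 barcodes. It was seen in 343 of 343 and 78 of 80 B cells. Cd22, a lectin that restrains the receptor, was at 304 and 336 CPM, against 4.55 and 0.787 in plasma-cell barcodes, and its relative Siglecg at 196 and 186, against 8.53 and 3.78. Cd22 and Siglecg thus set the B cells apart from plasma-cell as well as Cd3 barcodes. Against plasma-cell barcodes 15 of 22 were higher and none lower (background 11.1% and 7.1% of 9932 genes). Cd79a, Blnk (218 and 108), Vpreb3 (666 and 630) and Ly6d (1529 and 1745) were among the 7 not called there.

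**Figure D2:**
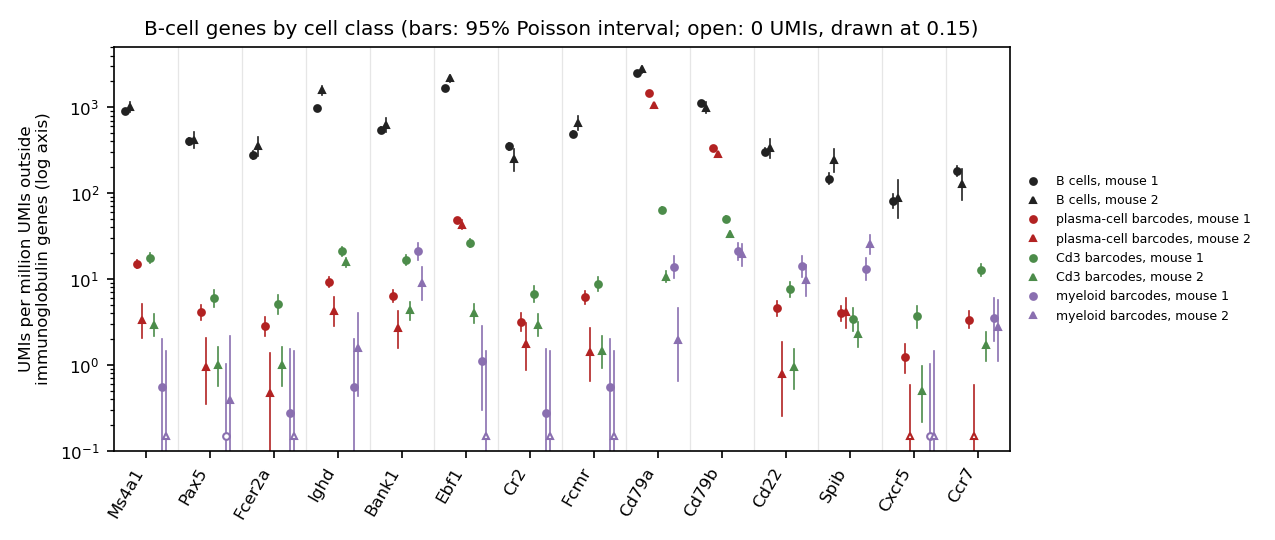
Levels of the 8 rule genes and 6 other B-cell genes (UMIs per 1000000 UMIs outside immunoglobulin genes, log axis) in B cells, plasma-cell, Cd3 and myeloid barcodes; circles are mouse 1, triangles mouse 2, bars exact 95% Poisson intervals and open symbols 0 UMIs. B cells stand highest for every gene in both mice, while Cd79a reaches 1450 and 1057 in plasma-cell barcodes.

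Promoter sequence was examined for motifs of factors that these cells expressed: the octamer ATGCAAAT, read by Oct proteins such as Pou2f2, and the palindrome-like CCCNNGGGA, of the type read by Ebf1. Each motif was searched on both strands, from 250 bases before to 50 after the start, in RefSeq promoters of GRCm38.p6. Of the 22 identity genes 13 had a promoter in the table, and of the 8 rule genes 6. The octamer was found in 2 of the 13 (15.4%), Vpreb3 and Blnk, against 532 of all 27025 genes (1.97%). The Ebf-type motif was found in 2 of the 13 (15.4%), Cd22 and Cd55, against 2022 of all genes (7.48%). Neither was found in the 6 rule genes. The 4 stretches are shown because they are the matches among identity genes. Capitals mark the first match, which in each case lies on the strand opposite to the gene, and the sequence is given on the gene's strand.
Vpreb3, chr10:75948229-75948288, plus strand: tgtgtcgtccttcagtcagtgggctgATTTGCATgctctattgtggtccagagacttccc
Blnk, chr19:40994318-40994377, minus strand: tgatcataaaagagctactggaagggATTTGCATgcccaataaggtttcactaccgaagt
Cd22, chr7:30879043-30879103, minus strand: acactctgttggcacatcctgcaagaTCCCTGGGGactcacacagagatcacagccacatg
Cd55, chr1:130462816-130462876, minus strand: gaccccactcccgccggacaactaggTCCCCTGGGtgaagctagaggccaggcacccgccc
The motifs begin 45 bases before the start of Vpreb3, 130 before that of Blnk, 49 before that of Cd22 and 106 before that of Cd55. The Cd22 window holds 2 matches, which overlap. The marked match is followed, from its next base, by CCCTGGGGA on the gene's own strand, so they are not separate sites. In plasma-cell barcodes Vpreb3 was at 402 and 336 CPM and Blnk at 121 and 123, whereas Cd22 was at 4.55 and 0.787 and Cd55 at 73 and 51.3.

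Among genes of signalling from the B-cell receptor, 7 of 15 were higher than in other Ptprc-positive barcodes and none lower, with medians of 1.38 and 1.21. Against myeloid barcodes 3 were higher, Btk, Prkcb and Rasgrp3, and 1 lower, Ifitm3 (background 8.23% and 13.1% of 8393 genes), with medians of 0.35 and 0.36. Syk, the kinase that docks on the phosphorylated receptor, was at 261 and 279 CPM, against 19 and 8.77 in Cd3 barcodes. Btk, the next kinase, was at 152 and 175, and Rasgrp3, a Ras activator, at 146 and 145, against 10.2 and 4.85 and against 8.13 and 1.43. Lyn, at 246.5 and 248, was called against Cd3 barcodes (61.5 and 55.6) but stood at 333 and 344 in myeloid barcodes. Pik3cd, the leucocyte PI3-kinase subunit, ran the other way, at 74.1 and 98.1 in B cells and 187 and 280.3 in Cd3 barcodes. Among 8 inhibitory receptors and phosphatases only Cd200, a ligand that restrains myeloid cells, was higher (75.7 and 139). Cd200r1 and Ptpn22 were lower, Ptpn22 at 79.6 and 175.5 against 526 and 806 in Cd3 barcodes.

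Transcription factors of mature B cells were higher in 11 of 18 cases and lower in none (medians 1.28 and 1.93). Spib, an Ets factor of B and plasmacytoid dendritic cells, was at 147 and 243 CPM and at 13.1 and 25.2 in myeloid barcodes, the next class. Bach2, which holds back plasma-cell differentiation, was at 180.2 and 212, with 6.65 and 5.04 in plasma-cell barcodes. Bcl11a was at 322 and 382 and Zfp318, needed for IgD transcripts, at 280.1 and 377. These 4 were called higher than each of the 3 comparison classes, and Zfp318 came closest to Cd3 barcodes (80.1 and 107). Mef2c (1175 and 1079) was not called against plasma-cell barcodes, at 557 and 589. Pou2af1, the co-activator of Oct factors, stood lower in B cells (168 and 299) than in plasma-cell barcodes (303 and 375).

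Follicle and lymph-node homing genes were divided between the trafficking receptors of recirculating cells and the gut-homing ones. Of 14 genes, 8 were higher than in other Ptprc-positive barcodes and 3 lower. Cxcr5 was at 81.1 and 87.8 CPM, at 3.66 and 0.498 in Cd3 barcodes, and it had no UMI in myeloid barcodes of either mouse. Ccr7 was at 181 and 129, against 12.7 and 1.68 in Cd3 barcodes. S1pr1, the receptor by which lymphocytes leave tissue, was at 193 and 212, against 23.6 and 7.34 in Cd3 barcodes. The 3 lower genes were Ccr9, Ccr10 and Itgb7, receptors of gut homing. Ccr9 was at 25.7 CPM in mouse 1 (33 UMIs) and had 0 UMIs in mouse 2, against 303 and 409 in Cd3 barcodes and 168 and 262 in plasma-cell barcodes. With 0 UMIs set to the 3 counts that a count of 0 allows, Ccr9 in mouse 2 was lower than in other Ptprc-positive barcodes by at least 4.50 on the log2 scale. Ccr6, a receptor of cells beneath follicle-associated epithelium, was at 81.9 and 25.8, on 105 and 5 UMIs.

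Survival receptors and lymphotoxins gave a mixed picture. Of 13 genes, 5 were higher and 1 lower, with medians of -0.05 and 0.21. The mean of these medians, 0.08, became 0.92 with plasma genes under 5 UMIs, 0.95 without B cells of mixed markers and 1.31 against others without plasma-cell barcodes. Tnfrsf13c was at 277 and 315 CPM in B cells, 63.4 and 66.4 in plasma-cell barcodes and 8.52 and 3.73 in Cd3 barcodes. The plasma-cell receptor Tnfrsf17 (BCMA) was at 6.24 and 0, against 313 and 310.3 in plasma-cell barcodes, and Tnfrsf13b (TACI) at 212 and 129 against 421 and 426. Ltb, the lymphotoxin chain that maintains follicles, was at 704 and 738, above the 234 and 164 of Cd3 barcodes. Bcl2 stood at 151 and 149.7 in B cells and at 521 and 821 in Cd3 barcodes.

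Genes of MHC class II and co-stimulation were high in B cells. Of the accessory chains, H2-Oa, H2-Ob and H2-DMb2 were higher than in myeloid barcodes, H2-DMb1 was lower and H2-DMa was not called. Against other Ptprc-positive barcodes 12 of 15 were higher and 1, Cd80, lower on 4 and 1 UMIs (medians 2.03 and 2.67). Against Cd3 and plasma-cell barcodes 14 of 15 were higher and none lower. Against myeloid barcodes 6 were higher and 3 lower (background 8.23% and 13.1% of 8393 genes), with medians of -0.08 and 0.47. Cd74, the invariant chain, was at 14794 CPM in B cells of mouse 1 and 13050 in mouse 2, and at 15645 and 9446 in myeloid barcodes. H2-Aa was at 4118 and 4047 in B cells and 5282 and 3324 in myeloid barcodes. For these chains the order of the classes was opposite in the 2 mice.

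The 6 genes higher than in myeloid barcodes in both mice were H2-Oa, H2-Ob, H2-DMb2, H2-Eb2, Cd83 and Icosl. H2-Ob, a chain of the peptide-exchange inhibitor H2-O, was at 348 and 506 CPM in B cells and at 23.3 and 11.8 in myeloid barcodes, log2 differences of 3.90 (95% counting interval 3.57 to 4.26) and 5.42 (4.82 to 6.06). Its partner H2-Oa was at 277 and 253 against 75 and 32.7, and H2-DMb2 at 398 and 346 against 106 and 71.3. H2-DMb1, Cd86 and Cd80 were lower, H2-DMb1 at 158 and 134 against 567 and 413. The co-stimulatory ligand Cd86 was at 35.9 and 31.0 against 118 and 66.6. H2-DMb1 and H2-DMb2 are close copies, and reads shared by such copies are not counted by the software used.

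**Figure D3:**
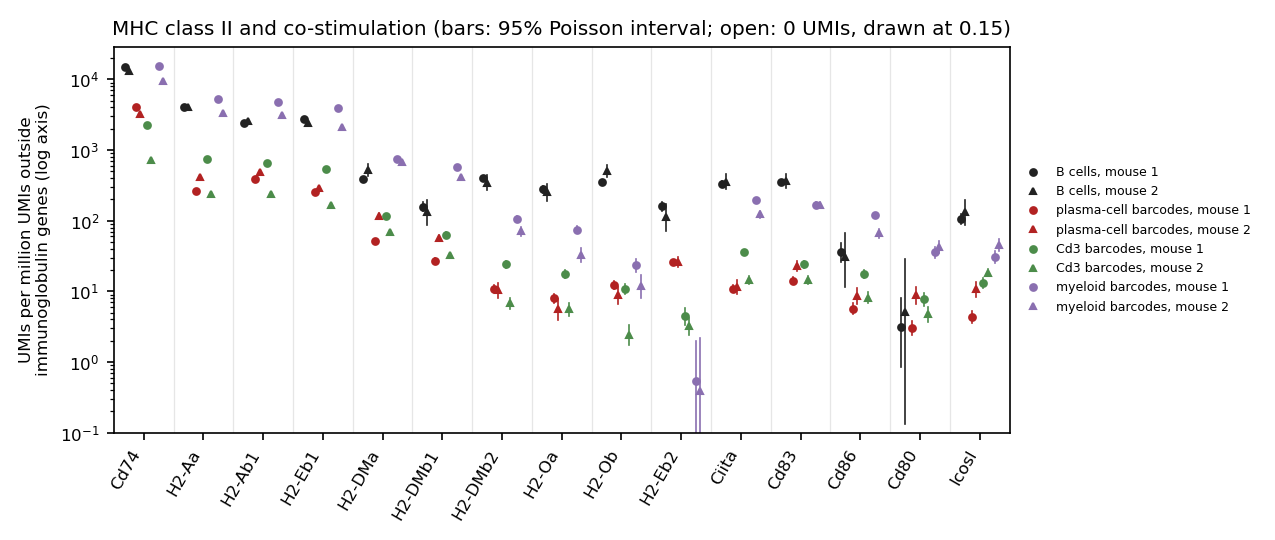
Levels of 15 genes of MHC class II and co-stimulation (UMIs per 1000000 UMIs outside immunoglobulin genes, log axis) by class and mouse, with exact 95% Poisson intervals. Cd74 and H2-Aa of B cells lie beside those of myeloid barcodes, whereas H2-Oa, H2-Ob and H2-DMb2 lie above them in both mice.

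B cells carried transcripts of IgM and IgD. Ighm was at 1869 CPM in mouse 1 and 2963 in mouse 2, against 168 and 184 in Cd3 barcodes and 532 and 291 in plasma-cell barcodes. Ighm or Ighd was seen in 318 of 343 B cells (92.7%) and 78 of 80 (97.5%), and both in 299 and 73. The same was true of 33.2% and 34.4% of Cd3 barcodes for Ighm or Ighd, which is taken as the background. Igha and Jchain, the transcripts of IgA plasma cells, were in B cells at the level of Cd3 barcodes. Igha was at 7730 and 2003 against 7760 and 2029, and Jchain at 2167 and 418 against 2144 and 435. Both are therefore read as background here. The 15 plasma-cell genes together, the 3 capped by the rule included, were at 3732 and 1662 in B cells and 3602 and 1594 in Cd3 barcodes. In the plasma-cell list 14 of 15 genes were lower than in other Ptprc-positive barcodes, a direction that the rule favours, since it caps the sum of Mzb1, Derl3 and Xbp1. Without these 3, 11 of 12 were lower. The list had, against Cd3 barcodes, 1 gene higher and 1 lower of 14. The 1 higher was Mzb1, at 351 and 310 in B cells, 63.7 and 11.4 in Cd3 barcodes and 3833 and 3623 in plasma-cell barcodes, although its sum with Derl3 and Xbp1 was capped by the rule.

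**Figure D4:**
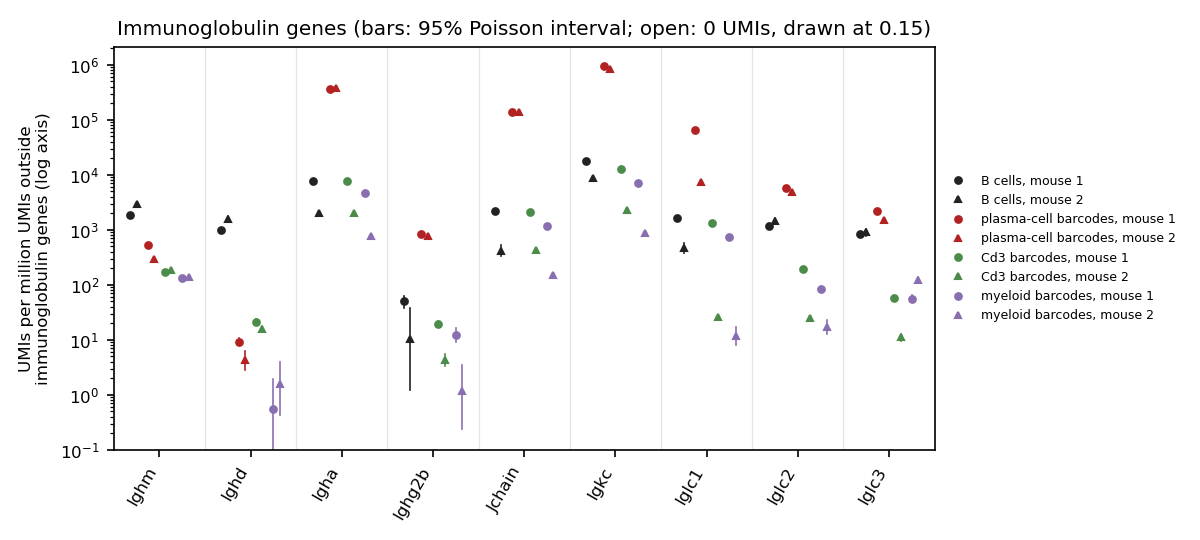
Levels of immunoglobulin genes and Jchain (UMIs per 1000000 UMIs outside immunoglobulin genes, log axis) by class and mouse, with exact 95% Poisson intervals. Ighm, Ighd, Iglc2 and Iglc3 of B cells lie above Cd3 barcodes in both mice, while Igha and Jchain lie on them.

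Light-chain transcripts of both kinds were found in nearly every B cell. A B cell rearranges either the kappa or a lambda light chain, and most mouse B cells use kappa. With a call at 90% of at least 2 light-chain UMIs, 47 B cells (13.7%) of mouse 1 and 10 (12.5%) of mouse 2 were kappa, 0 were lambda, and 296 and 70 held both. With background Igkc in the droplets a lambda call could hardly be reached, since no B cell held more than 47 and 18 UMIs of Iglc2 and Iglc3, so the 0 calls set no limit on lambda use. In Cd3 barcodes, which make neither, 48.3% and 86.4% fell on kappa by the same calls, at a median of 41 and 6 Igkc UMIs, against 59 and 19.5 in B cells. A kappa call alone is therefore not read as kappa expression. Counts of Iglc2 and Iglc3, a measure added after the values were seen, gave at least 1 UMI in 340 of 343 (99.1%) and 77 of 80 (96.2%) B cells, against 50.5% and 6.94% of Cd3 barcodes. At least 5 such UMIs were held by 240 (70.0%) and 43 (53.8%) B cells, against 2.29% and 0.359%. The median was 6 and 5 UMIs a cell, from 2 and 2 at the 10th percentile to 14 and 10 at the 90th. Igkc in the 85 and 12 B cells with at least 10 of these UMIs had a median of 63 and 22 UMIs, and in the others 57 and 18. Cells rich in Iglc2 and Iglc3 thus held no less Igkc than the rest. Iglc2 and Iglc3 are near-identical, so their counts are uncertain singly and are given as a sum.

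Genes of activation, which also rise during dissociation, varied among the B cells. Of Egr1, Nr4a1, Myc, Cd69 and Cd83, none was seen in 65 and 31 B cells, 1 in 113 and 26, 2 in 81 and 17, and 3 or more in 84 and 6. Myc was at 102 and 67.1 CPM, against 25.1 and 25.7 in Cd3 barcodes, and was the only 1 of 17 genes of the list higher than in other Ptprc-positive barcodes. Egr1, an early target of the receptor, was at 328 and 119, against 63.4 and 63.2 in Cd3 barcodes. Thinned to 1000 UMIs, Egr1 was expected in 13.9% and 7.11% of B cells and in 3.58% and 3.58% of Cd3 barcodes. In myeloid barcodes it was expected in 12.2% and 7.20%, close to B cells. Egr1 was called higher than in plasma-cell barcodes but not than in Cd3 or myeloid barcodes. Cd83, which steadies MHC class II on the surface, was expected in 27.3% and 23.5%. Fosb, Jun, Dusp1 and Atf3 were lower than in other Ptprc-positive barcodes, and Jun differed little from Cd3 barcodes (179 and 77.4 against 192 and 58.9).

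Germinal-centre and cycling genes were seen in few B cells. At least 2 of 12 germinal-centre genes were seen in 9 of 343 B cells (2.62%, 1.21 to 4.92) and in 1 of 80 (1.25%). In Cd3 barcodes the shares were 2.95% and 1.63%. Cd3 barcodes may express genes of this list themselves, so their shares are not read as a background and set no limit on germinal-centre cells. Of 10 genes of the list that could be compared, Bcl6 and Mybl1 were higher than in other Ptprc-positive barcodes and Basp1 lower. Bcl6, a repressor that germinal-centre cells need, was at 32.8 and 51.6 CPM, against 17.4 and 19.8 in Cd3 barcodes and 2.62 and 3.78 in plasma-cell barcodes. Mybl1 was at 7.02 and 5.16 on 9 and 1 UMIs, against 1.28 and 1.37 in Cd3 barcodes. A single cell of mouse 1 stood apart, with 9 of the 12 genes, 2 UMIs each of Rgs13 and Bcl6, 16 of Ms4a1 and 0 of Ighd, on 8427 UMIs in all. Mki67 or Top2a was seen in 12 (3.50%) and 0 B cells. Of 13 cell-cycle genes, 4 were lower than in other Ptprc-positive barcodes and none higher (background 6.79% and 3.79%). In mouse 2, 0 of 80 cells allows a share of up to 3.75% with a UMI at this depth, and sets no limit on cells that express the genes. Genes of marginal-zone and B-1 cells gave no higher call among 11, with Cd9 and Spn lower (background 3.79% and 6.79%), and S1pr3 and Cd5 had 0 UMIs in the B cells of both mice. Against plasma-cell barcodes Dtx1 was higher and Cd9, Bhlhe41 and Spn lower. At least 2 of the 12 genes were seen in 21.3% and 8.75% of B cells, against 53.2% and 42.4% of Cd3 barcodes. Of 10 genes compared with Cd3 barcodes, Cd9, Dtx1, Spn and Tbx21 were lower in B cells and none higher (background 8.83% and 4.16%). The Cd3 shares are therefore not read as a background for this list. Whether marginal-zone or B-1 cells were present was not tested. Of 6 genes of immature cells, Rag1, Rag2, Dntt and Igll1 had 0, Vpreb1 had 1 and 0 UMIs and Cd93 7 and 3, the last at 5.46 and 15.5 CPM against 7.73 and 7.28 in Cd3 barcodes.

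The genes outside the lists that separated B cells furthest, chosen as the 20 whose smaller difference of the 2 mice was largest, were led by Gm31243, B3gnt5, Snn, Chst3 and Lrrk2. Gm31243 was at 299.6 and 232 CPM, against 5.50 and 0.436 in Cd3 barcodes, and was seen in 58.6% and 41.2% of B cells. B3gnt5, a glycosyltransferase of lacto-series glycolipids, was at 149 and 212, against 4.94 and 2.80. Chst3, a chondroitin sulfotransferase, was at 165 and 274, against 3.19 and 0.747, and the kinase Lrrk2 at 82.7 and 170.4, against 4.78 and 2.86. March1, the ubiquitin ligase that turns over MHC class II, was at 211 and 196, against 6.86 and 12.3 in plasma-cell barcodes and 106 and 104 in myeloid ones. Satb1, at 329 and 423, and Egr3, at 151 and 119, were also among the 20. The 10 genes furthest lower, several of them known from intraepithelial and cytotoxic T cells, were Tcrg-C1, Ctsw, Ikzf2, Itga1, Actn2, Itgae, Cd7, Klrd1, Cst7 and Skap1. Itgae, the integrin CD103, was at 9.36 and 0 in B cells and at 761 and 933 in Cd3 barcodes.

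**Figure D5:**
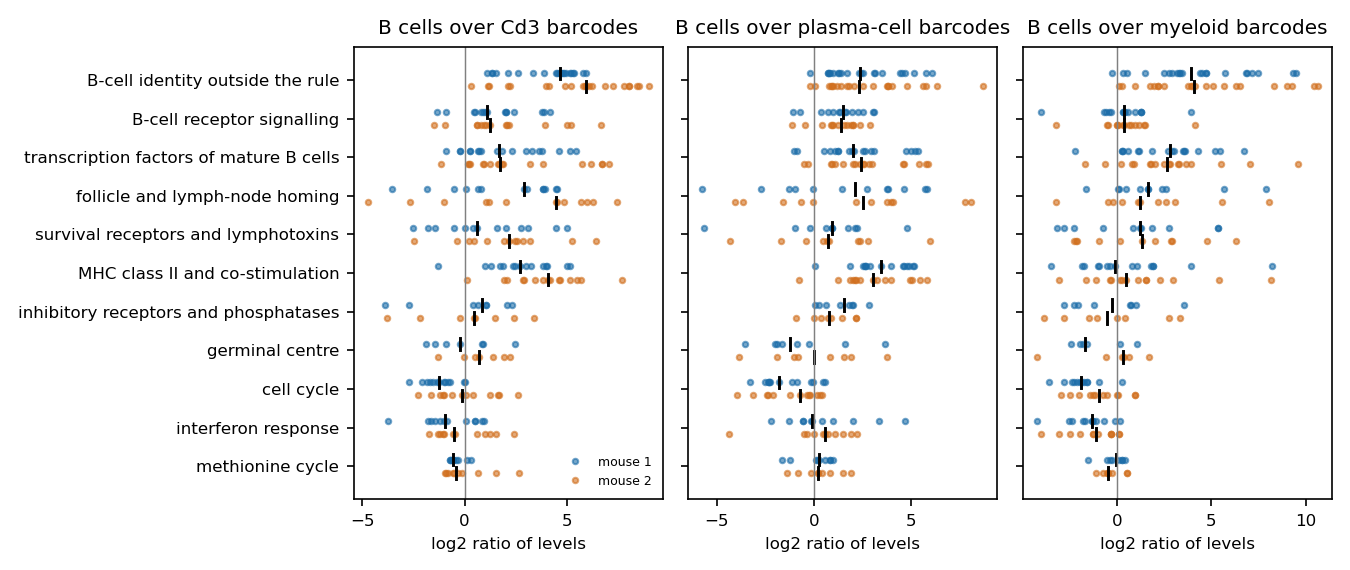
Log2 ratio of B cells over Cd3, plasma-cell and myeloid barcodes for each gene with at least 20 UMIs in B cells and the comparison together in each mouse, by gene list (rows); dots are genes, blue mouse 1 and orange mouse 2, black bars list medians, and a sum of 0 is drawn at 3 counts. Medians of identity genes lie right of 0 in all 3 panels, from 2.31 to 5.91, and those of MHC class II genes against myeloid barcodes lie at -0.08 and 0.47.

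Transcripts of other cell types were also present in the B-cell sums, and their part in the results was not tested. The 15 myeloid genes summed to 364 CPM in B cells of mouse 1 and 945 in mouse 2, against 9510 and 8936 in myeloid barcodes, and S100a9 was at 0 in both. In mouse 2, all 137 Lyz2 UMIs, 58 of 59 Cxcl2 UMIs and 88 of 89 Il1b UMIs lay in 1 cell of 17655 UMIs that also held 7 rule genes. The 15 epithelial genes summed to 1152 and 139 CPM, and to 1662 and 727 in Cd3 barcodes, with Olfm4 at 0 in both. Pancreatic acinar genes summed to 2874 in mouse 1, against 4369 in its Cd3 barcodes, and to 0 in mouse 2. T-cell genes summed to 231 and 274 CPM, against 42061 and 50066 in Cd3 barcodes, with the Cd3 genes at 0 by the rule. At least 2 myeloid genes were seen in 16 and 1 B cells (4.66% and 1.25%), against 6.21% and 2.59% of Cd3 barcodes. At least 2 epithelial genes were seen in 96 and 4 (28.0% and 5%), against 36.1% and 7.80% of Cd3 barcodes. Neither share of B cells was above that of Cd3 barcodes. Of 14 epithelial genes compared, Epcam and Apoa1 were lower in B cells than in Cd3 barcodes and none higher (background 8.83% and 4.16%). The Cd3 share therefore need not be a background for this list.

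Between the B cells of the 2 mice, 221 of 3754 genes with at least 50 UMIs were 2-fold higher in mouse 1 and 81 in mouse 2, with no replicate of either mouse. The 5 furthest higher in mouse 1 were Ctrb1, Clps, Try4, Prap1 and Rbp2, genes of acinar and epithelial cells. Ctrb1 had 846 UMIs in mouse 1 and 0 in mouse 2, and was at 660.1 CPM in B cells and 1109 in Cd3 barcodes of mouse 1. The 5 furthest higher in mouse 2 were Cxcl2, Lyz2, Il1b, S100a6 and Msrb1. For S100a6, 38 of 39 UMIs lay in 1 cell, and for Msrb1 16 of 22. Without the B cells that held 2 myeloid or 2 epithelial genes, an alternative added after the values were seen, 238 and 75 remained, and 125 and 57 of 2657 genes differed by 2-fold. Of the genes named above, Cd79a stood at a mean of 2631 ± 178 CPM over the mice, Cd22 at 320 ± 22.7 and Tnfrsf13c at 296 ± 26.8 (SD, n = 2).

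No methionine-cycle gene was called against other Ptprc-positive barcodes. Some genes of WNT signalling, which the study also concerns, and of the interferon response were called. Apc, the gene deleted in the epithelium, was at 57.0 and 41.3 CPM in B cells and at 56.7 and 49.5 in Cd3 barcodes, as counts per gene that do not resolve exons. Ahcy, the enzyme that clears S-adenosylhomocysteine, had 3 UMIs in B cells of mouse 1 and 0 in those of mouse 2, against 3.50 and 2.49 CPM in Cd3 barcodes. Of 10 methionine-cycle genes that could be compared, none was called in either direction, against 3.79% and 6.79% of all genes. Of 12 interferon-response genes, Isg15, Bst2 and Gbp2 were lower than in other Ptprc-positive barcodes and none higher (background 6.79% and 3.79%). These calls varied with the comparison. Only Bst2 was lower than in plasma-cell barcodes (background 7.1%), and only Isg15 and Gbp2 than in Cd3 barcodes (8.83%). Against myeloid barcodes 5 were lower (13.1%). Of 10 genes of WNT signalling, Myc was higher and Rnf43 and Tcf7 lower (background 3.79% and 6.79%). Tcf7 was at 0.780 and 5.16 CPM, against 112 and 98.6 in Cd3 barcodes.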

How the data were processed

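Single-cell RNA was measured in live cells of the proximal small intestine of 2 APC mice. According to the labels and the study's methods, the authors ran Cell Ranger 6.1.2 on the reads against mm10, and the deposited values are raw UMI counts per gene and barcode after its cell calling, with 31053 genes. No column of per-sample values was left unused. The barcode limits, the rule and the marker classes are given with the results. Values of 3 list genes are not reported here. Doublets were kept and no doublet caller was run. B cells with myeloid or epithelial markers are counted, at shares not above those of Cd3 barcodes. These counts do not measure doublets.

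UMIs were summed per mouse and class and scaled to UMIs per 1000000 UMIs outside 392 immunoglobulin genes (CPM). Log2 ratios used the summed values, with a sum of 0 set to 3 counts. A gene was called at 2-fold or more in the same direction in both mice, with at least 20 UMIs in B cells and the comparison together in each mouse and without immunoglobulin variable genes. After the data were seen, the higher group was also required to hold at least 1 UMI in each mouse. Intervals are exact Poisson (CPM), Clopper-Pearson (shares) and conditional binomial (ratios), at 95%, and cover counting error only. Thinned shares are expected values at 1000 UMIs a cell. The B-cell rule, 22 lists of 297 genes and all alternatives were chosen with earlier results of these data known. Any member of the lists could be named. To these were added the 20 genes furthest higher and 10 furthest lower outside the lists, ranked by the smaller difference of the 2 mice, and the 5 each way that differed most between the B cells of the mice among genes with at least 50 UMIs. Gene positions are from GENCODE M21 and promoters from RefSeq. The 2-fold call, without the condition of at least 1 UMI, was tried on simulated counts with known folds larger than 2. Only genes with high counts were used, so this trial does not bear on calls from few UMIs. Python 3.11.15, numpy 2.4.6, scipy 1.17.1, pandas 2.3.3 and matplotlib 3.10.9 were used. Each mouse is 1 sample of the same group, and no statistical test was applied to the data.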

Additional observations from a re-analysis of the deposited data

Results flagged for a closer look

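Barcodes that no comparison used also carried B-cell genes. Those removed for mitochondrial or haemoglobin UMIs that met every other clause of the rule numbered 19 in mouse 1 and 2 in mouse 2, at a median of 11.0% and 12.0% mitochondrial UMIs. With 1 group of 2 mice, neither outlying samples nor differences between groups could be looked for.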

How the results depend on the processing

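Of 3146 log2 ratios of 266 named genes under alternatives, 2600 moved by less than the SD over the mice, 531 moved further and 15 of called genes changed sign. Of 200 other values, 163 stayed within those limits and 37 moved. The alternatives included those with 1 mouse alone. For a log2 ratio averaged over the mice, leaving out a mouse always moves it by less than the SD. Such ratios could only fall among the 2600, so they do not measure stability. The same applies to percentages averaged over the mice among the 163. Each log2 ratio set B cells against other barcodes of the same mouse. No paired test was run, since no test was applied and the mice form 1 group. Where a value moved, the cause was not tested beyond what the alternative itself changes.

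The 463 higher genes became 949 with CPM over all UMIs and 981 to 1034 with 1 mouse alone, and the 830 lower genes 413 and 2007 to 2497. The 423 B cells were 80 to 343 with 1 mouse alone. With CPM over all UMIs, mean median log2 ratios rose to 1.81 for receptor signalling (from 1.30), 2.86 for MHC class II (2.35), 2.12 for transcription factors (1.61), 0.59 for survival genes (0.08) and 0.49 for all genes (-0.02). Against Cd3 barcodes they were 5.27 for identity (2.87), 1.16 for receptor signalling, 3.39 for MHC class II, 3.67 for homing (2.25), 1.38 for survival and -0.21 for all genes. Against others without plasma-cell barcodes they were 4.41 for identity, 1.04 for receptor signalling, 1.31 for survival and -0.19 for all genes. Homing fell to 0.65 with at least 100 UMIs, and survival rose to 0.92 with plasma genes under 5 UMIs and to 0.95 without B cells of mixed markers. The percentages of B cells with a UMI, 25.4 for Cd83, 23.4 for Cr2, 10.5 for Egr1 and 26.8 for Fcer2a, were 50.8, 46.9, 17.5 and 53.7 without thinning, and 14.4 for Cd83, 13.2 for Cr2 and 14.9 for Fcer2a at 500 UMIs. Kappa calls of 13.1% became 12.1% with at least 4 rule genes and 2.9% with at least 5 UMIs at 95%, and lambda calls of 0 became 0.538% without the Cd3 limit. With 1 gene of the list in place of 2, cell-cycle cells rose from 1.90% to 18.5% and germinal-centre cells from 1.94% to 19.8%.

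Against Cd3 barcodes, the log2 ratio changed sign to 0.29 for Cd93, 0.12 for Edem2, 1.31 for Ighg2b, 1.16 for Igkc, 2.25 for Iglc1, 0.15 for Jun, 3.61 for Mzb1, 1.38 for Sdc1 and 1.27 for Txndc5. Against others without plasma-cell barcodes it became 1.30 for Ighg2b, 1.06 for Igkc, 2.22 for Iglc1, 3.46 for Mzb1, 0.87 for Sdc1 and 1.05 for Txndc5. Depth limits mouse 2, where 80 B cells held 193712 UMIs outside immunoglobulin genes.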

Other observations

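Kept barcodes with at least 3 rule genes also lay outside the B cells. The plasma clause left out 58 in mouse 1 and 4 in mouse 2, with median totals of 24815 and 20681 UMIs and median Igha counts of 3156 and 3735.5. Of these, 27 and 0 held at least 2 germinal-centre genes, a share seen in 41.7% and 33.4% of all plasma-cell barcodes, and 22 and 2 a UMI of Mki67 or Top2a. The Cd3 clause left out 53 in mouse 1 and 13 in mouse 2, of which 26 and 5 had exactly 1 Cd3 UMI, with median totals of 4512 and 3821 UMIs. The former are among the plasma-cell barcodes and the latter, where Ptprc was seen, among the Cd3 barcodes.

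Variable-region UMIs were found in B cells and in Cd3 barcodes. In mouse 1, 286 Igkv UMIs fell on 55 of 160 genes, with Igkv12-44 holding 12.6% of them, and 234 Ighv UMIs fell on 62 of 185 genes, with Ighv10-3 holding 8.97%. Cd3 barcodes of mouse 1, which make no immunoglobulin, held Igkv UMIs on 70 genes at 153 CPM, against 223 CPM in B cells, and Ighv UMIs on 68 genes at 55.5 CPM, against 183. In mouse 2, 21 Igkv UMIs fell on 15 genes and 35 Ighv UMIs on 26. Counts from the 3′ end reach few variable regions, genes of these families are near-identical, and barcodes without immunoglobulin expression hold them too, so clones cannot be told apart from these values.

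Among B cells without 2 myeloid or 2 epithelial genes, Fos stood higher in mouse 1, with 161 UMIs (196 CPM) in mouse 1 and 1 UMI (5.96 CPM) in mouse 2, beside acinar genes such as Ctrb1 (474 and 0 UMIs). Btla, an inhibitory receptor that binds HVEM, stood the other way, at 139 and 340 CPM. There is 1 library a mouse, so a difference between mice and between libraries cannot be told apart. The cell with the most UMIs in mouse 1, 23187, held 6 rule genes, 9 cell-cycle genes, 11 Mki67 UMIs and 67 of the 91 Il1b UMIs of its mouse's B cells.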
